A study of Mus musculus with 6 samples.

Results

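The ribosomal protein genes encode the proteins of the cytoplasmic ribosome. They were taken from the mm10 gene annotation as the protein-coding genes named Rpl or Rps with a number and an optional letter or suffix, together with Rplp0, Rplp1, Rplp2 and Rpsa, and without the Rps6k kinases. This gave 82 of 21951 protein-coding genes, 51 of the large subunit (Rpl and Rplp) and 31 of the small subunit (Rps), spread over 19 chromosomes. Accessible chromatin was mapped by ATAC-seq, in which the Tn5 transposase cuts open DNA and so marks it for sequencing, in 6 libraries of mouse helper T cells differentiated in culture for 5 days. All 6 came from wild-type C57BL6/J mice and from naive CD4+CD62L+ spleen cells activated through CD3 and CD28. For the study as a whole, the mice were of both sexes and between 8 and 16 weeks of age. Th9 cells (2 libraries, replicates 1 and 3) received IL-4, IL-2, TGF-β1 and anti-IFNγ. Th2 cells (2 libraries, replicates 1 and 3) received IL-4, IL-2 and anti-IFNγ. Th17 cells (2 libraries, replicates 1 and 3) received IL-6, TGF-β1, IL-23 and IL-1β with antibodies to IFNγ, IL-4 and IL-2. The labels do not say whether the 2 libraries of a subset came from separate mice or cultures, so the p-values measure only the spread between these libraries.

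The ribosome is built from a small subunit, which reads the messenger RNA, and a large subunit, which joins amino acids, and each subunit assembles its proteins on ribosomal RNA in near equal amounts. The genes for these proteins lie scattered through the genome, are used by nearly all cells, and are known for transcripts that begin with a tract of pyrimidines (C and T), the 5′ terminal oligopyrimidine motif, through which mTOR signalling adjusts their translation. Activated T cells enlarge and divide, and ribosome production is part of that growth. A few members have paralogs with restricted expression, such as Rpl3l in striated muscle and Rpl10l in the testis.

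Peaks were called by the authors in each library on its own, and the lists held 100317 to 142213 peaks. A gene was called in a library when a peak overlapped the promoter, which reached from 1000 bp before an annotated start to 100 bp after it. Strength is given as the percentile of the peak's fold enrichment over background within its own list, where 100 is the strongest peak, and width as the length of the peak in bp. Of the helper T cell markers, Cd3e was called in all 6 libraries and Cd4 in 4. The Il9 promoter stood at percentiles 88.6 and 90.7 in Th9, at 37.1 and 44.4 in Th2, and had no peak in Th17. Il17f was called only in the 2 Th17 libraries, and Il17a in both of them (81.4 and 69.5) and in Th2 replicate 3 (36.1). Il13 was called only in the 2 Th2 libraries, while Il4 was called in Th2 (87.8 and 88.3) and stood higher in Th9 (89.5 and 92.3). Of 10 markers of B cells, cytotoxic T cells, myeloid cells and natural killer cells, 2 and 3 had a promoter peak in the Th9 libraries, 4 and 3 in the Th2 libraries and 1 in each Th17 library. Cd8b1 was called in all 6, and Cd8a, Ms4a1, Lyz2, Csf1r and Ncr1 in none.

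The starts of 8 members are shown because the results turn on them, namely the 5 with the largest statistic for a difference between subsets and the 3 that were not called in all libraries. Each stretch runs from 50 bases before the annotated start to 25 bases from the start on, 5′ to 3′ on the gene's strand, in the mm10 sequence. Capitals mark the longest unbroken run of C and T within the 20 bases on either side of the start. A longer run that crosses the edge of this window counts only for its part inside. On the plus strand lie Rpl8 (chr15:76904028-76904102), Rpl31 (chr1:39367792-39367866), Rpl37 (chr15:5116595-5116669), Rpl3l (chr17:24727770-24727844) and Rpl39l (chr16:10170178-10170252). On the minus strand lie Rps15a (chr7:118116164-118116238), Rpl23a (chr11:78183560-78183634) and Rpl10l (chr12:66284377-66284451).
Rps15a: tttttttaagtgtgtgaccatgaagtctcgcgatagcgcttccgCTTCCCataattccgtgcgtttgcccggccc
Rpl8: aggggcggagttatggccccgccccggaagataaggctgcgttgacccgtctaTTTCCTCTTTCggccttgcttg
Rpl31: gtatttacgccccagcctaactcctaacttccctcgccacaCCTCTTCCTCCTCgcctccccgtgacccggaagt
Rpl37: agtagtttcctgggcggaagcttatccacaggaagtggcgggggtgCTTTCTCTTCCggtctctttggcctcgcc
Rpl23a: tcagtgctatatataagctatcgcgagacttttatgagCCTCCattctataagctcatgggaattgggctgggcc
Rpl3l: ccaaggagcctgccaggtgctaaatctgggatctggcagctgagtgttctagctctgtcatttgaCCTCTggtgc
Rpl10l: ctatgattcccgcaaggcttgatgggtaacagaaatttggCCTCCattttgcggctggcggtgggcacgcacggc
Rpl39l: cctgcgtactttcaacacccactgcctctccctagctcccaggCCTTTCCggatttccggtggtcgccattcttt
The run was 11 bases long in Rpl8 and Rpl37 and 13 in Rpl31, against 5 in Rpl23a, Rpl3l and Rpl10l, 6 in Rps15a and 7 in Rpl39l. The 200 bases upstream of the Rpl8 start (chr15:76903878-76904077, plus strand) are shown because Rpl8 had the lowest mean percentile of the members called in all 6 libraries. Capitals there mark the SP1 word GGGCGG on either strand and the ETS word CCGGAAG, which shares a base with an SP1 word.
Rpl8 upstream: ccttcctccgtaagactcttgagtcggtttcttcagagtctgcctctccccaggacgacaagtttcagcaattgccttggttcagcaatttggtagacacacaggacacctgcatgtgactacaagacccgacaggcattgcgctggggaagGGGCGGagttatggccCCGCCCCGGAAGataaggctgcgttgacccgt

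Nearly every ribosomal protein gene had an accessible promoter in every library. A promoter peak was called in all 6 libraries for 79 of 82 members, against 58.7% of all protein-coding genes (12886 of 21951). All 31 small subunit members and 48 of 51 large subunit members were among them. The 3 exceptions were paralogs. Rpl3l, the muscle form of Rpl3, and Rpl39l, a paralog of Rpl39, had no promoter peak in any library. Rpl10l, the testis form of Rpl10, had a single peak, in Th17 replicate 1, at percentile 13.7 and 437 bp wide. Rpl3l starts at position 24727820 of chromosome 17, in the same stretch as Rps2, which starts at 24720063 and encodes a small subunit protein. Rps2 stood in Th9 at percentiles 95.8 and 96.1, in Th2 at 91.3 and 94.7 and in Th17 at 97.7 and 95.3.

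The other paralogs were called in all 6 libraries, and Rpl22l1 was among the strongest of all members. Rpl22l1, a paralog of Rpl22, stood in Th9 at percentiles 99.0 and 98.1, in Th2 at 99.3 and 99.1 and in Th17 at 99.5 and 99.6. Rpl22 itself stood at 98.6 and 98.5, 98.0 and 97.9, and 97.9 and 98.6 in the same order. Rpl7l1, a paralog of Rpl7, stood lower, in Th9 at 93.7 and 94.5, in Th2 at 89.0 and 87.6 and in Th17 at 92.9 and 91.2. Its Th2 values lay below the other 4. Rps27l, a paralog of Rps27 and a known p53 target, stood in Th9 at 97.0 and 96.2, in Th2 at 92.4 and 93.2 and in Th17 at 93.9 and 91.3, so that its Th9 values were the highest and the Th2 and Th17 values overlapped.

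Among the members called in all 6 libraries, 73 of 79 (92.4%) were at or above the 80th percentile in every library, compared with 74.5% of all genes called in all 6, and 48 (60.8%) were at or above the 90th, compared with 50.5%. Among the strongest by mean percentile were Rps29 (99.48), Rps19 (99.43), Rpl22l1 (99.11) and Rpl13a (98.65). Rps19, the small subunit protein most often mutated in Diamond-Blackfan anaemia, ranged from 99.2 to 99.8 over the 6 libraries. Rps29 ranged from 98.8 to 99.9 and was lowest in both Th17 libraries. The weakest called in all 6 were Rpl8 (80.88), Rpl6 (83.73), Rpl35a (85.25), Rpl23a (85.54) and Rps4x (85.59), the X-linked form of Rps4. The whole range of mean percentiles was therefore 80.88 to 99.48. Percentiles are compressed near 100, so the spread of a strong member between libraries cannot be compared with that of a weak one on this scale, and the fold enrichment of Rps19 ran from 11.4 to 24.0 while that of Rpl8 ran from 2.88 to 5.27.

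**Figure D1:**
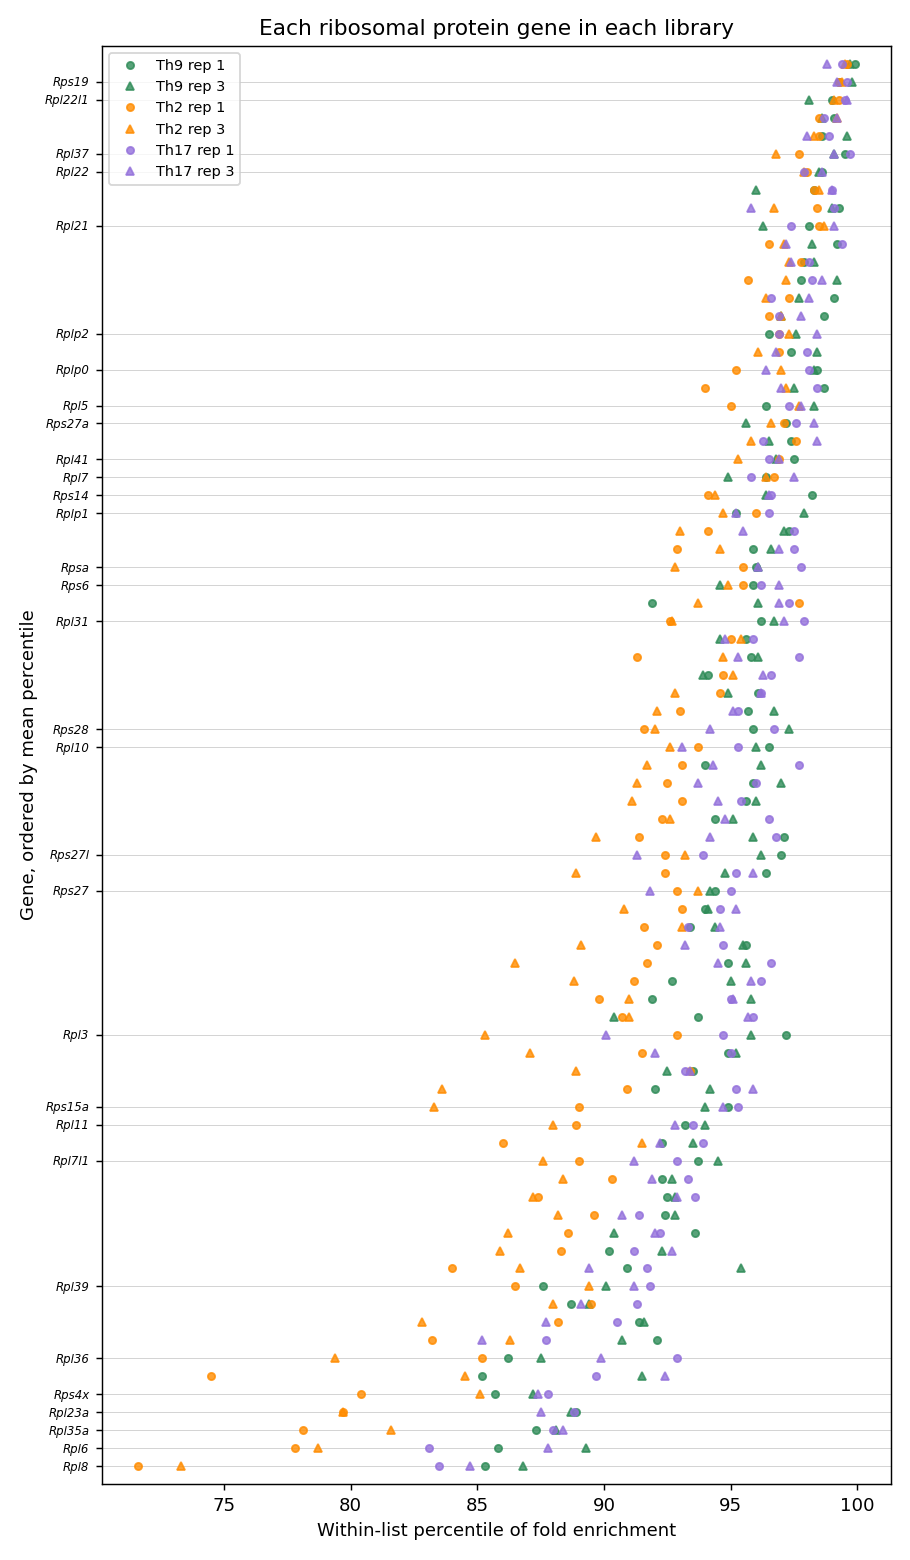
Within-list percentile of fold enrichment (horizontal axis) of each of the 79 genes called in all 6 libraries (vertical axis, ordered by mean percentile, with some of the genes labelled), with circles for replicate 1, triangles for replicate 3 and a colour per subset. The Th2 points of the weaker genes lie to the left of the others, down to 71.6 and 73.3 for Rpl8, and the scale is compressed towards 100, where Rps19 and Rpl22l1 lie.

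The ribosomal protein promoter peaks stood at lower percentiles in the 2 Th2 libraries than in the 4 Th9 and Th17 libraries. The members' median percentile was 95.7 and 95.8 in the Th9 libraries, 92.9 and 92.6 in Th2, and 96.2 and 95.2 in Th17. Over all promoters called in all 6 libraries the medians stood in Th9 at 94.2 and 93.1, in Th2 at 92.8 and 92.3 and in Th17 at 93.8 and 92.7. The members therefore stood above the median promoter in all 6 libraries, by a small margin in Th2 and a larger one in Th9 and Th17. As subset means the members were at 95.7 ± 0.0286 in Th9, 92.8 ± 0.23 in Th2 and 95.7 ± 0.649 in Th17 (SD, n = 2 libraries each). In bulk libraries, fewer cells with an open promoter and less cutting per cell cannot be told apart.

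**Figure D2:**
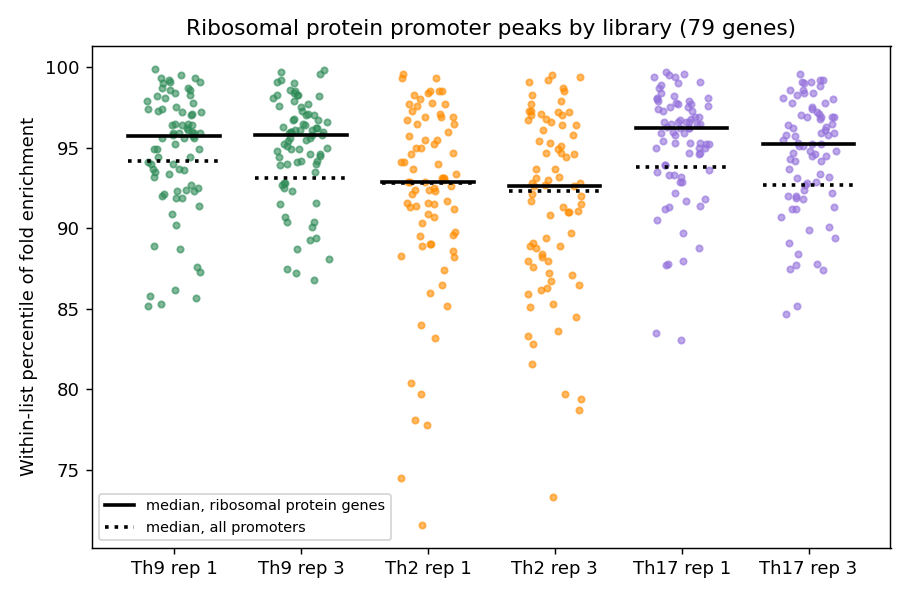
Within-list percentile of fold enrichment (vertical axis) of the 79 genes in each of the 6 libraries (horizontal axis), where each point is a gene, solid lines are the members' medians and dotted lines the medians of all 12886 promoters called in all libraries. The solid line meets the dotted line in the 2 Th2 libraries (92.9 against 92.8, and 92.6 against 92.3) and lies above it in the other 4.

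In 43 of 79 members (54.4%) both Th2 libraries lay below all 4 others, compared with 17.9% of all genes called in all 6 libraries. No member had both Th2 libraries above the other 4, against 8.91% of all genes. Both Th9 libraries were the highest in 13 members, 16.5% against 17.6% of all genes, and the lowest in 2, against 7.37%. Both Th17 libraries were the highest in 16 members (20.3%), against 5.55%, and the lowest in 1, against 9.01%. Both subunits took part, with 24 of 48 large subunit members (50.0%) and 19 of 31 small subunit members (61.3%) lowest in Th2.

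The large subunit members lowest in Th2 included Rpl4, Rpl6, Rpl7l1, Rpl8, Rpl11, Rpl23a, Rpl31, Rpl32, Rpl35a, Rpl36 and Rpl37. The small subunit members included Rpsa, Rps2, Rps4x, Rps14, Rps15a, Rps24, Rps26 and Rps28. Whether or not the libraries overlapped, the Th2 mean lay below the mean of the other 4 libraries in 73 of 79 members (92.4%), against 55.2% of all genes. The median difference was -2.67 percentile points in the members and -0.23 over all genes. The most negative difference was -12.61, in Rpl8, and the most positive 0.85, in Rpl21. The 6 members with a Th2 mean above the others were Rpl7, Rpl21, Rpl22l1, Rps13, Rps23 and Rps29.

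**Figure D3:**
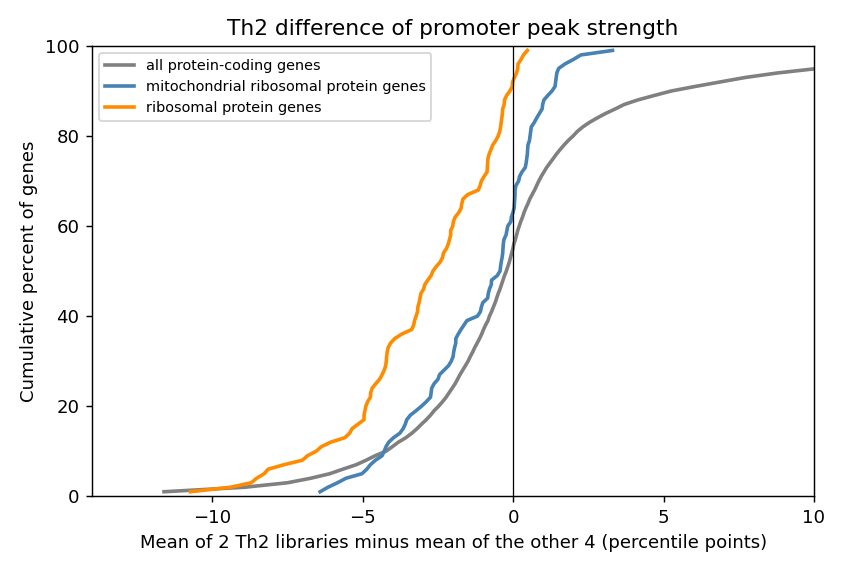
Mean percentile of the 2 Th2 libraries minus the mean of the other 4 (horizontal axis, percentile points) against the cumulative percent of genes (vertical axis), for ribosomal protein genes (orange), mitochondrial ribosomal protein genes (blue) and all genes called in all 6 libraries (grey). The orange curve lies to the left of the grey one over most of its course, with medians of -2.67 and -0.23, and the blue curve has a median of -0.44.

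Other quantities are set beside the Th2 pattern, and their part in it was not tested. Ranked only among the promoter peaks of genes called in all 6 libraries, the members' medians stood in Th9 at 60.7 and 66.8, in Th2 at 50.7 and 51.3 and in Th17 at 65.4 and 64.7, and 30 members (38.0%) were lowest in Th2 against 14.3% of all genes. Among genes whose Th2 peaks were not both wider than the other 4, 36 of 66 members (54.5%) were lowest in Th2, against 18.3% of 9440 genes. The background coverage of the Th2 libraries, 11.2 and 15.2 fragments, lay inside the range of the others (5.65 and 12.1 in Th9, 14.4 and 17.7 in Th17), as did their peak numbers of 142079 and 120198. The median width of all promoter peaks lay outside that range, at 1531 and 1683.5 bp in Th2 against at most 1417 bp in the other 4 libraries. The T cell marker Cd3e was also lowest in the 2 Th2 libraries, at 69.3 and 78.6 against 81.5 to 92.0. The other T cell marker, Cd4, went the other way and was highest in Th2, at 44.4 and 55.9. It stood at 29.2 in Th9 replicate 3 and 19.2 in Th17 replicate 3, with no peak in Th9 replicate 1 or Th17 replicate 1. The 4 and 3 markers of other cells called in the Th2 libraries included Itgax, called in no other library. They also included Adgre1, called in both Th9 libraries too, and Cd8b1, called in all 6.

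By gene, no member passed the test for a difference in strength between the 3 subsets. The limma F test on the normal quantile of the percentile, a scale on which 1 unit is an SD of a normal curve, called 0 of 79 members and 0.0776% of all genes (10 of 12886) at an adjusted p under 0.05. At an unadjusted p under 0.05 it held 27 members (34.2%) against 15.6% of all genes. In the pairwise limma contrasts, at an unadjusted p under 0.05, 28 members (35.4%) were lower in Th2 than in Th9 and 0 higher. Of all genes, 17.8% passed in either direction. From Th2 to Th17, 19 members (24.1%) were higher in Th17 and 0 lower, against 11.6% of all genes in either direction. Between Th17 and Th9, 3 were higher and 2 lower in Th17 (6.33%), against 11.5% of all genes. The comparisons of Th2 with Th9 and with Th17 share the same Th2 libraries. The count of 27 fell most when either Th2 library was left out, and less without either Th17 library. It fell least without Th9 replicate 3 and did not fall without Th9 replicate 1. Each of these fits leaves a single library in a subset.

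The members with the largest F are described in full. Rps15a, a small subunit protein (chr7:118104372-118116188), stood in Th9 at 94.9 and 94.0, in Th2 at 89.0 and 83.3 and in Th17 at 95.3 and 94.7. Its subset means were 94.5 ± 0.6, 86.2 ± 4.0 and 95.0 ± 0.419 (SD, n = 2), with all Th2 values lowest. The difference Th2 minus Th9 was -0.50 ± 0.13 (SE) on the normal quantile scale and Th17 minus Th2 was 0.55 ± 0.13, with an adjusted p of 0.242 for the limma F test. Rpl8, a large subunit protein near the peptidyl transferase centre (chr15:76904078-76906314), stood in Th9 at 85.3 and 86.8, in Th2 at 71.6 and 73.3 and in Th17 at 83.5 and 84.7. The gap between its Th2 values and the next library was wider than the spread within any subset, and the differences were -0.49 ± 0.11 for Th2 minus Th9 and 0.40 ± 0.11 for Th17 minus Th2 (limma F, adjusted p = 0.242).

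Rpl31, a protein at the rim of the peptide exit tunnel (chr1:39367842-39371911), stood in Th9 at 96.2 and 96.7, in Th2 at 92.6 and 92.7 and in Th17 at 97.9 and 97.1. The Th2 libraries agreed closely with each other and lay below the rest (limma F, adjusted p = 0.242). Rpl37, a large subunit protein (chr15:5116645-5119140), stood at 99.5 and 99.1, 97.7 and 96.8, and 99.7 and 99.1 in Th9, Th2 and Th17. Its Th2 peaks were also wider, at 2952 and 3165 bp against 982 to 2105 bp in the other libraries (strength, limma F, adjusted p = 0.244). Rpl23a, another protein at the exit tunnel (chr11:78180932-78183584), stood at 88.9 and 88.7, 79.7 and 79.7, and 88.8 and 87.5, with an adjusted p of 0.268 by the limma F test.

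The proteins of the stalk and other landmark members followed the pattern to unequal extents. The stalk of the large subunit, which recruits elongation factors, is made of Rplp0, Rplp1 and Rplp2. Rplp0 stood in Th9 at 98.4 and 98.3, in Th2 at 95.2 and 97.0 and in Th17 at 98.1 and 96.4, so that Th2 and Th17 overlapped. Rplp1 ranged from 94.7 to 97.9 and Rplp2 from 96.5 to 98.4, and in both the 3 subsets overlapped. Rpl5 and Rpl11 enter the ribosome with 5S ribosomal RNA and, outside it, bind Mdm2. Rpl11 stood in Th9 at 93.2 and 94.0, in Th2 at 88.9 and 88.0 and in Th17 at 93.5 and 92.8, with the Th2 values lowest. Rpl5 ranged from 95.0 to 98.3 with overlapping subsets.

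Rpl3, which reaches towards the peptidyl transferase centre, stood in Th9 at 97.2 and 95.8, in Th2 at 92.9 and 85.3 and in Th17 at 94.7 and 90.1, where the 2 Th2 libraries lay further apart than any pair of subset means. Rpl10, a late-joining protein encoded on the X chromosome, stood at 96.5 and 96.0, 93.7 and 92.6, and 95.3 and 93.1, and its Th2 and Th17 values overlapped. Rpl39, also X-linked, stood at 87.6 and 90.1, 86.5 and 89.4, and 91.8 and 91.2, with Th17 highest. In the small subunit, Rpsa, the laminin receptor precursor, stood in Th9 at 96.0 and 96.1, in Th2 at 95.5 and 92.8 and in Th17 at 97.8 and 96.1, with Th2 lowest. Rps14 stood at 98.2 and 96.4, 94.1 and 94.4, and 96.6 and 96.5, again with Th2 lowest, but its Th2 mean minus the mean of the other libraries turned from -2.67 to 6.18 when the peak with the longest overlap was taken in place of the strongest. Rps6, the substrate of the S6 kinases, and Rps27a, which is made as a fusion with ubiquitin, showed no such order, with ranges of 94.6 to 96.9 and 95.6 to 98.3.

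Genes with related functions were set beside the members. Mitochondrial ribosomal protein genes, which serve the separate ribosome of the mitochondrion, were called in all 6 libraries in 78 of 78 cases, and 18 (23.1%) were lowest in Th2, with a median difference of -0.44. Of 17 other genes known for a terminal oligopyrimidine motif, most of them translation factors, 6 (35.3%) were lowest in Th2 (Eef1b2, Eef1d, Eef1g, Hnrnpa1, Naca and Vim), with a median difference of -0.92. Of 23 ribosome biogenesis genes, 7 (30.4%) were lowest in Th2 (Bop1, Fbl, Ncl, Nop56, Nop58, Polr1a and Wdr12), with a median difference of -1.07. Of 5 ribosomal proteins or ribosome-bound proteins under other names, 2 were lowest in Th2, among them Rack1. The shares of the lists above exceeded the 17.9% of all genes and lay below the 54.4% of the members. A further list held 3 genes, the members Rpl5 and Rpl11 and their partner Mdm2. In it 2 (66.7%) were lowest in Th2, Rpl11 and Mdm2, with a median difference of -4.18. The differences between lists were not tested.

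Ribosomal protein promoter peaks were narrower than the typical promoter peak. The members' median width measured 1038 and 1276 bp for Th9, 1208 and 1512 bp for Th2 and 1128 and 1287 bp for Th17, against 1282.5 and 1417, 1531 and 1683.5, and 1317 and 1409.5 bp over all promoters. As subset means the members were at 1157 ± 168.3 bp in Th9, 1360 ± 215.0 bp in Th2 and 1207.5 ± 112.4 bp in Th17 (SD, n = 2). A member was narrower than the median promoter of its library in every library in 29 of 79 cases (36.7%), against 30.9% of all genes. In both the members and all promoters the replicate 3 library of each subset had the higher median.

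Peaks lay on both sides of the start. The peak covered the reference start in all 6 libraries in 77 of 79 members (97.5%), against 87.1% of all genes. From the start, the members' peaks reached a median of 493.5 bp upstream and 706.5 bp downstream, against 569.5 and 775 bp over all genes. The exceptions were Rpl18, whose called peak lay at another annotated start in all 6 libraries, and Rpl35, whose start was covered in 5. In 15 members the start of another annotated coding gene lay under the same peak in every library, a count not made over all genes. For Rps10 the other was RPS10-NUDT3, an annotation that carries the Rps10 name. In the rest the peak cannot be given to either gene alone. These included Rps28 with Ndufa7, Rps27 with Rab13, Rpl7 with Rdh10 and Rpl41 with Zc3h10. Small nucleolar RNA genes, which guide the modification of ribosomal RNA, lay inside 29 members, 57 in all.

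**Figure D4:**
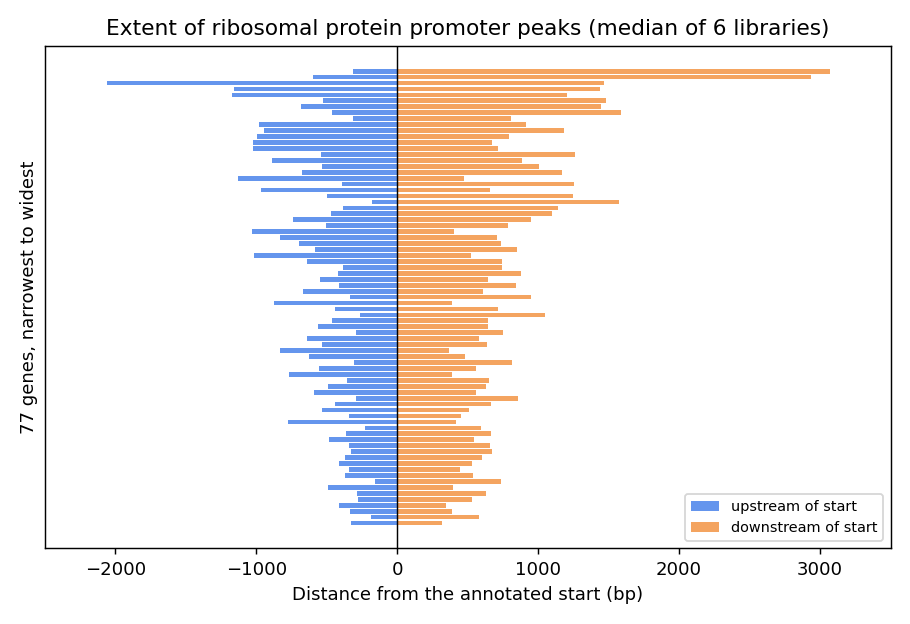
Distance in bp from the annotated start (horizontal axis) covered by the promoter peak upstream (blue) and downstream (orange), as the median of the 6 libraries, for the 77 genes whose start was covered in every library, ordered by mean width. Most bars stay within 1000 bp of the start on either side, with Rpl36 and Rpl41 reaching 3074 and 2933.5 bp downstream.

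The narrowest peaks by mean width belonged to Rps28 (667.2 bp), Rpl6 (726.8 bp) and Rps27 (738.7 bp), and the widest to Rpl36 (3559.5 bp), Rpl41 (3502.5 bp) and Rpl7 (3348.7 bp). Rps28 ranged from 593 to 741 bp over the 6 libraries. Rpl7 ranged from 2849 to 3748 bp, under a peak it shared with Rdh10. Rpl36 was 3939 and 5531 bp wide in Th9, 2831 and 6437 bp in Th2, but 961 and 1658 bp in Th17. Its Th17 peaks were the narrowest, and its Th17 percentiles of 92.9 and 89.9 were the highest, against 86.2 and 87.5 in Th9 and 85.2 and 79.4 in Th2.

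Width differed between the subsets in 2 of 79 members by the limma F test on log2 width at an adjusted p under 0.05, against 1.96% of all genes (252 of 12886), and in 11 (13.9%) at an unadjusted p under 0.05, against 14.6%. Rpl21, a large subunit protein (chr5:146832890-146837032), measured 925 and 900 bp for Th9, 1642 and 1613 bp for Th2 and 1067 and 1028 bp for Th17. Its Th2 peaks were wider than in Th9 by 0.83 ± 0.09 (SE) on the log2 scale (adjusted p = 0.0341), with an adjusted p of 0.0489 for the F test. Rpl23a measured 1277 and 1537 bp for Th9, 1162 and 1249 bp for Th2 and 575 and 572 bp for Th17. The Th17 minus Th2 difference was -1.07 ± 0.13 on the log2 scale (limma, adjusted p = 0.0495), with an adjusted p of 0.0408 for the F test. Leaving out any 1 of the 6 libraries left 0 members past the threshold, with 7 to 14 at an unadjusted p under 0.05, and with the replicate number as a block 0 passed, with 15.

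Across all members, both Th2 widths exceeded the other 4 in 13 of 79 (16.5%), against 26.7% of all genes, and lay below them in 1, against 0.629%. Both Th9 widths were the lowest in 11 members (13.9%), against 20.7%, and the highest in 2, against 2.34%. Both Th17 widths were the lowest in 4 members (5.06%), against 13.0%, and the highest in 1, against 2.93%. None of these shares was far above that of all genes.

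The sequence around the annotated start was read for words bound by factors known at such promoters, in the 250 bases before to 50 bases after the start. The ETS word CCGGAAG, on either strand, was present in 25 of 82 members (30.5%), against 11.2% of 21938 protein-coding genes. The YY1 word AAGATGG, on either strand, was present in 11 members (13.4%), against 6.32%. The SP1 word GGGCGG was present in 43 (52.4%) against 45.4%, the E-box CACGTG in 9 (11.0%) against 7.72%, and CCAAT in 25 (30.5%) against 38.6%, all on either strand. TATAAA, sought on the gene's own strand 40 to 15 bases before the start, was in 0 members and 2.47% of all genes. Among all genes called in all 6 libraries the ETS word was in 17.5% and the SP1 word in 64.3%, and among the mitochondrial ribosomal protein genes the ETS word was in 37.2%.

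Within the 20 bases on either side of the start, 30 members (36.6%) held a run of at least 8 pyrimidines. The share was 15.7% in all genes and 14.1% in the mitochondrial ribosomal protein genes. A run that crossed the edge of this window was counted only for its part inside. The start itself was a C followed by at least 4 more pyrimidines in 8 members (9.76%), among them Rpl4, Rpl32, Rpl37, Rps21 and Rps24, against 2.27% of all genes and 5.13% of the mitochondrial ribosomal protein genes. Of these 8, 7 were among the 43 members lowest in Th2 and 1, Rps21, among the other 36. A run of at least 8 was present in 19 of the 43 (44.2%) and 11 of the 36 (30.6%). The ETS word was in 15 of the 43 and 9 of the 36, and the YY1 word in 16.3% and 11.1%. Other words went the other way, with CCAAT in 25.6% of the 43 and 38.9% of the 36. In the same order SP1 was in 48.8% and 58.3%, and the E-box in 9.3% and 13.9%. The groups were split on these same data, and none of these differences was tested. In Rpl31 and Rpl37, shown above, the run crossed the start, and in Rpl8 it began 3 bases after it. These shares rest on annotated starts, which can lie some way from the start most used in these cells.

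**Figure D5:**
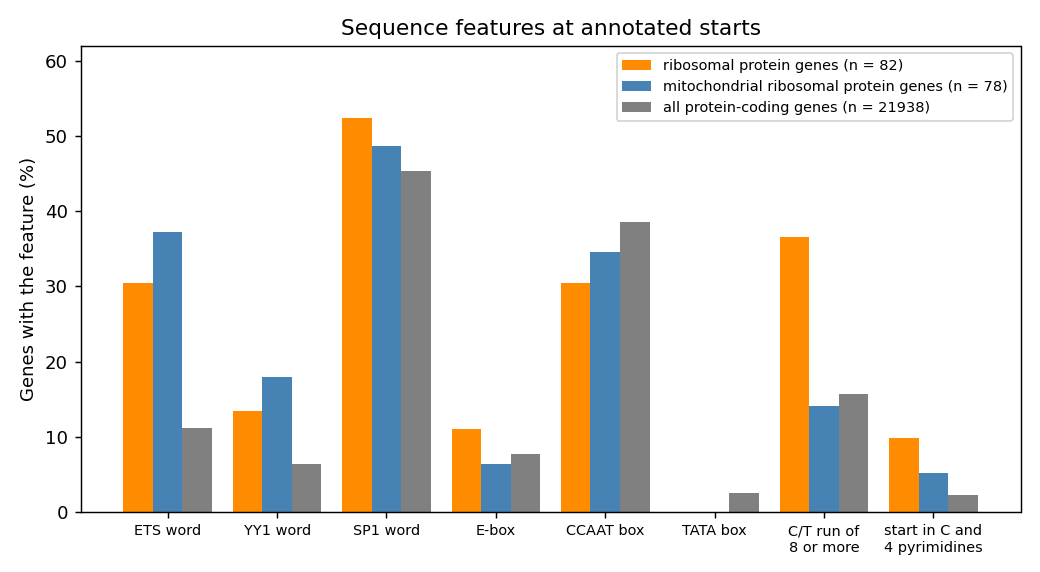
Percent of genes (vertical axis) whose sequence around the annotated start holds each feature (horizontal axis), for 82 ribosomal protein genes (orange), 78 mitochondrial ribosomal protein genes (blue) and 21938 protein-coding genes (grey). The ETS word is more frequent in both ribosomal protein groups (30.5% and 37.2%) than in all genes (11.2%), and the run of pyrimidines is at 36.6%, 14.1% and 15.7% in the same order.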

How the data were processed

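Per the labels and the study's methods, nuclei were cut with Tn5 and sequenced in pairs, and the submitters' processing notes name Trim Galore 0.4.3, Bowtie2, Picard and MACS2 2.1.0 with the mm10 genome. MACS2 ran on each library separately in broad mode for paired fragments, without a control and without a local background. The deposited broad peak lists hold a ratio (fold enrichment over a background that is constant within a library), −log10 p-values and q-values, and a score. The authors' fold enrichment was turned into a percentile within each list, which removes the scale set by depth but makes each value relative to the other peaks called. Total read depth is not given in the sources used here. The background coverage was recovered from the deposited fold and p-values of flat peaks. Because a broad peak's fold is a mean over its length, a wider peak can have a lower fold.

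Promoters came from the GENCODE M21 basic annotation of mm10. Where several peaks overlapped a promoter, the one with the highest fold was kept. Differences between subsets were tested with limma 3.58.1 (R 4.3.3) on the 12886 genes called in all 6 libraries, with Benjamini-Hochberg adjustment over all of them and a threshold of 0.05. The search for promoter peaks was checked against bedtools and the strength fit was tested on simulated data. There, Th2 values moved by 1 unit of the normal quantile scale were recovered in 55 of 100 genes, and by 2 units in 93 of 100. The members' median differences were smaller, at -0.26 for Th2 minus Th9 and 0.22 for Th17 minus Th2, and moves of that size were not simulated. The absence of members past the threshold therefore does not show that their strength was equal. Sequences were read from the RefSeq copy of the mm10 genome. Named members were those not called in all 6 libraries, the 5 highest and 5 lowest by mean percentile, the 3 widest and 3 narrowest, the 5 with the largest F, those past the threshold, and a fixed list of landmark genes and paralogs. Rps2 and the members listed as lowest or above the others in Th2, as sharing a peak, as not covered at the start or as starting in pyrimidines were named after their values were seen. A few genes that these rules select are not reported here by name. The members, lists and tests were chosen with earlier results of these data known.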

Additional observations from a re-analysis of the deposited data

How the results depend on the processing

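The number of members called in all 6 libraries ran from 68 of 82 to 84 of 87. The 68 came with the 20000 strongest peaks of each list, where 40.3% of all genes were called. It was 71 of 82 with a fold of at least 4, against 40.7% of all genes. The 84 came with 5 members under other names added, against 58.7%. The median percentile in Th9, whose 2 libraries differed by little, moved from 95.7 to 95.8 with an overlap of at least 200 bp or the 5 added members, to 95.6 with the longest overlapping peak, and stayed at 95.7 without the paralogs. The members that differed in strength numbered 1 (Rps15a) with quantile-normalised log2 fold, where 273 of all genes were called, and 0 otherwise, with 2 to 31 members at an unadjusted p under 0.05, while all-gene counts were 136 with log2 fold centred on the median, 75 without Th9 replicate 1, 64 without Th9 replicate 3, 15 with the replicate block and at most 10 elsewhere. The members that differed in width numbered 1 with a promoter of 2000 bp on either side, 0 with quantile-normalised log2 width (3 of all genes) and 0 to 0 when each library was left out, with 0 of all genes. With the replicate block, 0 members differed in strength and 0 in width, and 0 of all genes in width. The labels do not say whether a replicate number marks a shared day or batch. The numbers were not treated as pairs because not every correlation of same-numbered deviations in strength passed 0.1. These were 0.144 (Th9 with Th2), -0.0496 (Th9 with Th17) and 0.116 (Th2 with Th17). No such correlation was computed for width, so the choice to leave the width fit unpaired was not checked. The members lowest in Th2, a count added after the data were seen, numbered 30 to 45 under the other settings. Their share was 38.0% to 55.3%, against 14.3% to 20.5% of all genes. When each library was left out in turn they numbered 44 to 55, a share of 55.7% to 69.6%, against 19.1% to 29.7%. For single members, 289 of 306 alternative values of the Th2 difference moved by less than the spread between replicates, but the difference stayed negative under every alternative in 25 of 34 members and positive in 1, and changed sign in 8. Rps14 went from -2.67 to 6.18 with the longest overlapping peak, and Rpl5 from -1.09 to 0.28 without Th2 replicate 1. The cause of these changes was not tested.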

Other observations

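Processed pseudogenes of the ribosomal protein genes, copies made from their messenger RNA without the promoter, were examined by the same promoter window. Of 300, 263 (87.7%) had no peak in any library and 7 (2.33%) had one in all 6, compared with 83.3% and 3.65% of 9936 other processed pseudogenes. Between 17 and 21 were called in a given library. Away from the promoters of coding genes, 6 of 296 were called in all 6 libraries. They included Rps4l, a copy of Rps4x annotated as a transcribed pseudogene, which stood at percentiles in Th9 at 43.1 and 21.2, in Th2 at 44.6 and 56.2 and in Th17 at 64.7 and 52.3. They also included Rpl19-ps1, which lay under a peak of 12122 to 12586 bp in every library.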
